A study of Mus musculus with 6 samples.

Results

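The genes described here are 31 genes that cells switch on in response to interferon. They were chosen by name, by taking every non-control probe on the arrays that carries one of the 31 gene names. These make up 41 probes of the 55681 on the array, which stand for 34787 genes and unnamed transcripts in all. The group holds 22 genes of the type I interferon response (15 antiviral effectors, 4 sensors of foreign nucleic acid and 3 transcription factors) and 9 targets of interferon gamma (1 transcription factor, 5 GTPases and 3 genes of antigen processing). RNA came from the whole testis of 8-week-old C57BL/6 mice, either Gipr knockout (Gipr-/-, 3 mice) or wild type (Gipr+/+, 3 mice), and each mouse had 1 Agilent array labelled with Cy3. Gipr encodes the receptor for the gut hormone GIP. No treatment is named for either group, and the sources used here do not describe how the Gipr allele was made.

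Interferons are secreted proteins that warn cells of infection. Type I interferons bind the receptor pair Ifnar1 and Ifnar2, and the kinases Jak1 and Tyk2 then activate a complex that includes Stat2 and Irf9 and binds a DNA element called the interferon-stimulated response element (ISRE). Interferon gamma binds Ifngr1 and Ifngr2 and acts through a DNA element called the gamma-activated site (GAS) and through Irf1. In the testis, meiotic and post-meiotic germ cells lie behind the Sertoli cell barrier, while macrophages and Leydig cells lie between the tubules.

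The arrays shared 1 slide, where the knockout samples filled row 1 and the wild-type samples row 2, and effects of row and of genotype cannot be told apart. Between 70.6% and 76.0% of non-control spots were well above background by the scanner software's flag, and 0 were saturated. Markers of the tissue were present, with 9 of 9 germ cell, 7 of 7 Sertoli cell and 5 of 5 Leydig cell markers well above background. These counts ask for all 3 arrays of at least 1 genotype. The Sertoli cell marker Amh was above background on 3 knockout arrays and 0 wild-type arrays. Gipr itself gave a processed signal (background-corrected intensity) of 155, 145 and 176 in knockout testes, against 782, 820 and 1040 in wild-type testes. Gipr was 5.59-fold lower in the knockout, a difference of -2.48 ± 0.11 (log2, SE, limma adjusted p = 0.00183).

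Most interferon response genes gave a measurable signal in testis of either genotype. A gene counted as detected, and was tested, when all 3 arrays of either genotype had 1 of its probes well above background. By this rule 29 of the 31 genes were detected (20 of 22 type I genes and 9 of 9 gamma targets), against 77.4% of all genes on the array. On all 6 arrays the count was 26 of 31, and 30 of 31 had a probe above background on at least 1 array. Oas3, an enzyme that makes the second messenger 2-5A on sensing double-stranded RNA, was above background on 0 arrays. Its signal was 2.37, 2.46 and 2.76 in knockout testes, against 2.9, 3.93 and 2.72 in wild-type testes. Rsad2, the antiviral enzyme viperin, was above background on 2 knockout arrays and 1 wild-type array, with signals of 11.8, 13.1 and 6.73 against 23.1, 9.03 and 11.2. Both were left out of the tests. Signals are given as read, before scaling, while differences and SDs are on the log2 scale after each array's 75th percentile was subtracted. Ifit1, Ifit2 and Tap1 passed only through the wild-type arrays, so for these genes a lower knockout value is built into the filter.

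No interferon response gene passed the test between genotypes. limma called 0 of the 29 tested genes at an adjusted p under 0.05, and their adjusted p-values ran from 0.597 to 0.972. Over all 26933 tested genes 19 were called, which is 0.0705%, and 17 of those were lower in the knockout (0.0631%). At an unadjusted p under 0.05 there were 3 of the 29 (10.3%), against 7.46% of all genes. All 3 read lower in the knockout, as did 3.89% of all genes, and 0 read higher, against 3.57%. The 3 were Ifit1, Ifit2 and Xaf1. Without Ifit1 and Ifit2, for which the filter fixed the direction, 1 of 27 remained.

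The differences were small and leaned to lower values in the knockout. The knockout mean was below the wild-type mean for 23 of 29 genes, against 50.5% of all tested genes, and the median difference was -0.065 (log2, knockout minus wild type) against -0.001. Among the genes above background on all 6 arrays it was below for 20 of 26. For 17 of the 29 the difference was under 0.1 in size, and for 26 the 95% interval spanned 0. The interval excluded a 2-fold change in either direction for 28 genes, all but Ifit1. By response, the type I genes had a median of -0.053 with 16 of 20 lower, and the gamma targets a median of -0.109 with 7 of 9 lower. In bulk tissue, fewer cells of a type and less RNA per cell cannot be told apart.

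**Figure D1:**
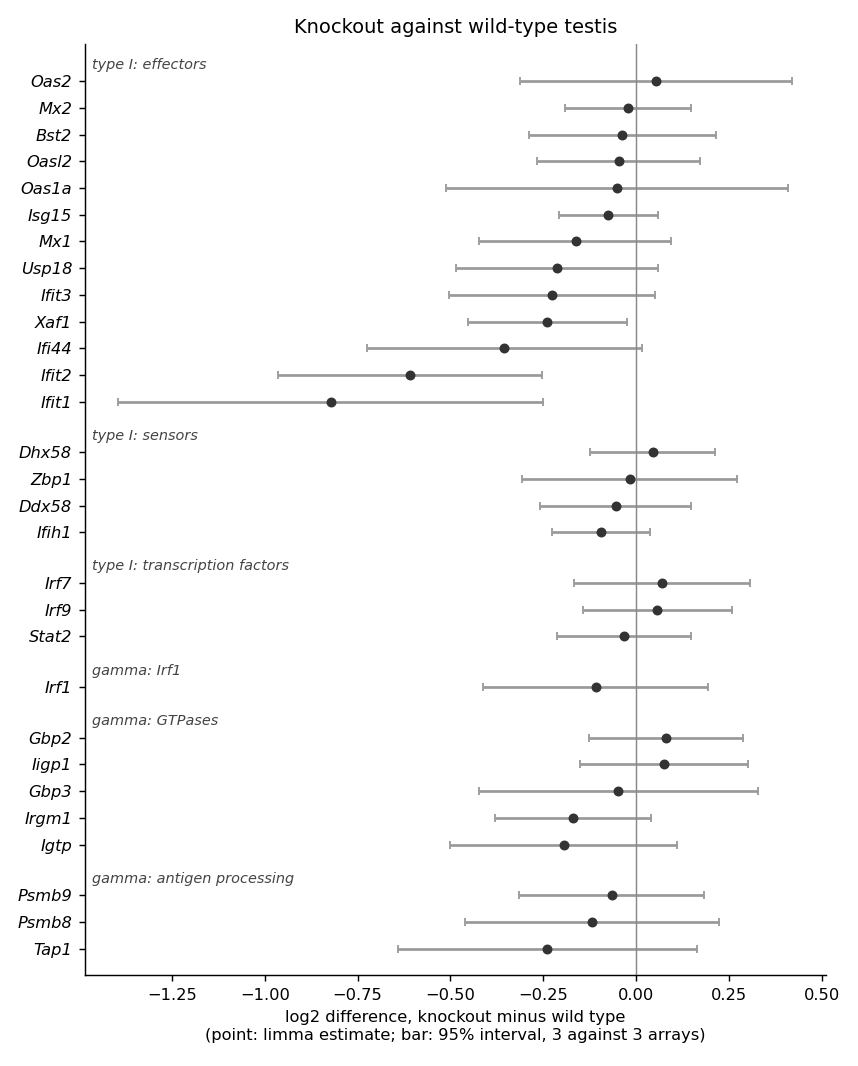
Difference of each tested interferon response gene, knockout minus wild type in log2, with its 95% interval from limma, by role. The intervals of Ifit1, Ifit2 and Xaf1 lie below 0 and the other 26 span it; adjusted p-values of the 29 genes run from 0.597 to 0.972.

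The lean was uneven over the arrays. Wild-type array 1 gave the highest value of the 6 arrays for 15 of the 29 genes (51.7%), against 14.4% of all tested genes. Knockout array 3 gave the lowest value for 14 (48.3%), against 27.6% of all genes. With each gene centred on its own mean, the median of the 29 genes was -0.01, 0.02 and -0.15 in knockout testes, against 0.14, 0.02 and -0.01 in wild-type testes. For the 29 genes together, the 4 other arrays thus lay near 0. The 13 tested type I effectors alone had -0.15, 0.02 and -0.18 in knockout testes, against 0.14, 0.05 and 0.04 in wild-type testes. Without Ifit1 and Ifit2, the effectors had -0.05 on knockout array 1 and -0.15 on knockout array 3. Without wild-type array 1, 17 of 29 genes read lower in the knockout, and without knockout array 3, 19 of 30. The median of the gamma targets went to 0 without wild-type array 1 and to -0.01 without knockout array 3. That of the type I genes stayed between -0.10 and -0.03 whichever array was left out.

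The same arrays stood out for markers of macrophages and leukocytes, and knockout array 3 also for markers of some other cell types. Of 15 such markers 14 were detected, with Cd163, a scavenger receptor of tissue macrophages, not above background. Wild-type array 1 was highest for 9 of the 14 (64.3%) and knockout array 3 lowest for 11 (78.6%). Their centred medians were -0.01, 0 and -0.30 in knockout testes, against 0.30, -0.04 and 0.02 in wild-type testes. The knockout mean was lower for 12 of the 14 with a median of -0.20, and 0 were called. Their summed signal, with each array's 75th percentile set to 1000, ran from 118307 to 140675 in knockout testes, and from 134200 to 141982 in wild-type testes, and most of it came from Aif1. Without Aif1 the sum of the other 13 ran from 8150 to 9789 and from 9319 to 11403. T and NK cell markers were detected for 5 of 9, with sums of 7778 to 9265 against 9015 to 9200. Cd3d, Cd3e, Cd4, Nkg7 and Gzma were above background, while Cd3g, Cd8a, Klrd1 and Gzmb were not. On knockout array 3 the centred median was -0.22 for these 5 markers, -0.27 for 4 B cell markers and -0.46 for 5 Leydig cell markers. On wild-type array 1 it was 0.05, -0.03 and 0.12. For the other lists, knockout array 3 had 0.18 in 7 Sertoli cell markers and -0.01 in 5 dendritic cell markers. It had -0.04 in 6 endothelial markers and -0.06 in 9 germ cell markers. Wild-type array 1 had 0.05, -0.01, 0.03 and 0.05 in these lists. Whether cell makeup takes part in the lean of the interferon response genes was not tested.

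**Figure D2:**
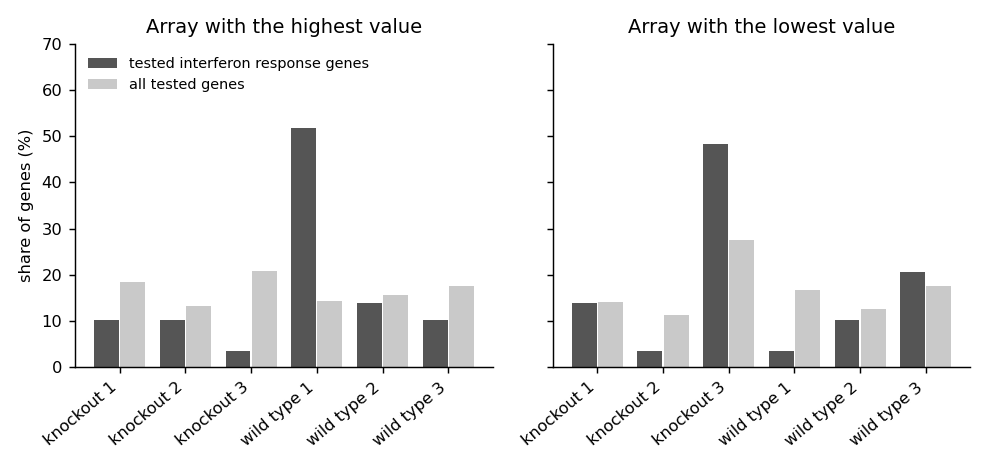
Percent of genes for which each array gave the highest (left) or the lowest (right) of the 6 values, for the 29 tested interferon response genes (dark bars) and all 26933 tested genes (light bars). Wild-type array 1 is highest for 51.7% of the interferon response genes against 14.4% of all genes, and knockout array 3 lowest for 48.3% against 27.6%.

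The DNA before the members' start sites was read to show what the group shares beyond its name. RefSeq promoter sequence (build GRCm38.p6, 250 bases before to 50 after each start) was found for 24 of the 31 genes. An ISRE core, searched as GAAANNGAAA or its reverse complement TTTCNNTTTC, lay in 14 of the 24 (58.3%), against 3.99% of all 27025 genes in the table. It was present in 10 of 16 type I genes (62.5%) and in 4 of 8 gamma targets (50%). A GAS, searched as TTCNNNGAA, which reads the same on both strands, lay in 6 of the 24 (25%), with 3 of 16 type I genes and 3 of 8 gamma targets, against 9.55% of all genes. The members hold 22 ISRE matches, of which 20 lie before the start, and 6 GAS matches, all before it. The searches overlap in Bst2 alone. A match describes letters in the window and shows no binding. Among the 12 tested genes with an ISRE match 11 read lower in the knockout, with a median of -0.065. Among the 10 without one 8 read lower, with a median of -0.113, against 50.5% of all tested genes. The counts include Ifit1 (with a match) and Ifit2 and Tap1 (without), for which a lower knockout value is built into the filter.

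**Figure D3:**
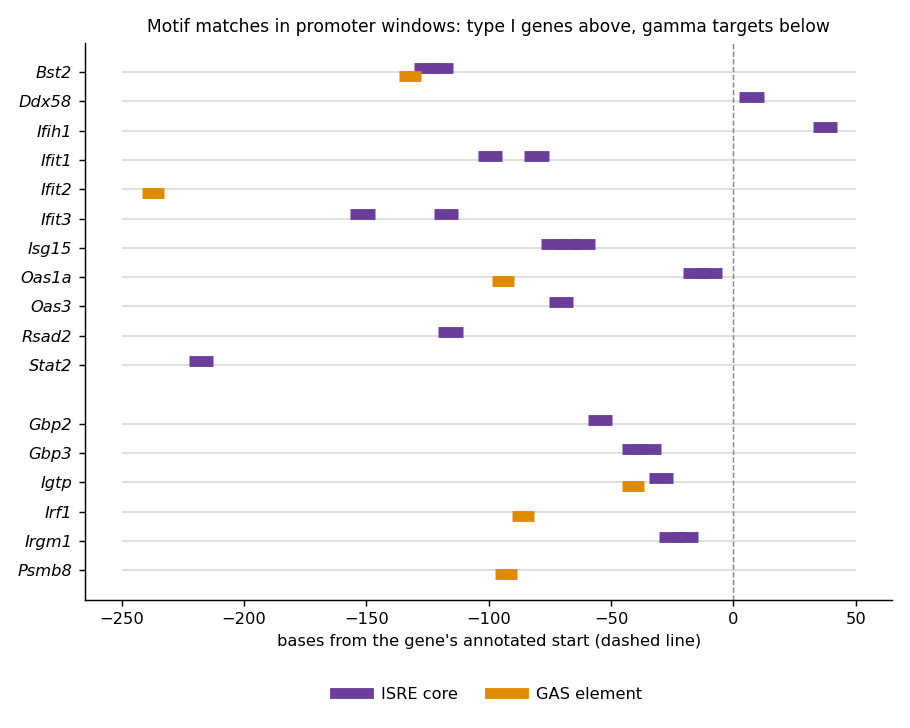
Position of each ISRE and GAS match in bases from the transcription start, for the interferon response genes with a match in the window from 250 bases before to 50 bases after the start. Of the 22 ISRE matches 20 lie before the start, and those of Ddx58 and Ifih1 lie after it.

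The Ifit genes, which sit side by side on chromosome 19 and encode proteins that bind foreign RNA and block its translation, included the widest differences of the group, in Ifit1 and Ifit2. Their promoters are shown because the 3 neighbours differ in the motifs they hold. The stretches are Ifit1 at chr19:34640760-34640838, Ifit3 at chr19:34583348-34583441 and Ifit2 at chr19:34550444-34550486 (GRCm38.p6, plus strand, 5′ to 3′, ISRE or GAS matches in capitals). Ifit1 and Ifit3 each hold a pair of ISRE matches. Ifit2 has 2 annotated starts, with 0 ISRE matches in the window of either. Its 1 GAS match lies in the window of 1 start, the one shown. Forms of the ISRE that depart from the searched letters were not looked for.
Ifit1: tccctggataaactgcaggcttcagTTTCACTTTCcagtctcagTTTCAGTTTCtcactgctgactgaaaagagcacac
Ifit3: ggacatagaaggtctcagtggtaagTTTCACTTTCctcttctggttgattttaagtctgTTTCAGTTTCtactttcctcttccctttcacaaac
Ifit2: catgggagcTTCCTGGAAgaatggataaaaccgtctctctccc

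Ifit1 was read by 1 probe at chr19:34723796-34723855 (mm9, plus strand, from base 1934 of NM_008331). Its signal was 8.67, 11.4 and 8.3 in knockout testes, against 21.8, 15.3 and 13.2 in wild-type testes. All 3 knockout arrays lay below all 3 wild-type arrays, but only 1 knockout array was well above background, so the knockout level is close to the limit of measurement. Relative to each array's 75th percentile, the means were -6.43 ± 0.31 in knockout testes, against -5.61 ± 0.40 in wild-type testes (log2, SD, n = 3 each). The difference was -0.82 ± 0.24 (SE), 1.77-fold lower with a 95% interval of 1.19 to 2.63, and it did not pass the test (limma adjusted p = 0.66). With normexp background correction, which adds an offset of 50, the difference was -0.19. That offset shrinks log2 differences between signals this dim by construction.

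Ifit2 was read at chr19:34650244-34650303 (mm9, plus strand, from base 3168 of NM_008332). It gave signals of 11.6, 8.78 and 11.8 in knockout testes, against 13.1, 18.1 and 17.4 in wild-type testes. Here too the genotypes did not overlap, and 2 knockout arrays were well above background. Its difference of -0.61 ± 0.15 (log2, SE) is 1.53-fold lower with an interval of 1.19 to 1.95, had the lowest p of the group and missed the threshold (limma adjusted p = 0.597). With normexp correction and its offset of 50 it was -0.11. Ifit3 was brighter, at 65.8, 81.4 and 72.1 against 80.6, 84.2 and 88.3. Knockout array 2 lay above wild-type array 1, so its genotypes overlapped, and the difference was -0.23 ± 0.12 (SE, limma adjusted p = 0.672). Some members have near-identical copies, such as Ifit3b beside Ifit3 and Oas1g beside Oas1a, and whether a probe reads both was not tested.

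Counted over the group, every knockout value lay below every wild-type value after scaling for 4 of 29 genes (13.8%), against 6.23% of all tested genes, and above it for 0, against 6.7%. Besides Ifit1 and Ifit2 these were Isg15 and Ifih1, both with narrow spread and differences under 0.1. Without Ifit1 and Ifit2 the count is 2 of 27 (7.41%). Isg15 encodes a ubiquitin-like protein that is attached to other proteins during infection. Its brighter probe read 379, 343 and 350 in knockout testes, against 361, 372 and 382 in wild-type testes, which overlap as signals. They part after scaling, at -1.15, -1.16 and -1.23 against -1.13, -1.08 and -1.10, a difference of -0.07 ± 0.06 (log2, SE, limma adjusted p = 0.72). The dimmer Isg15 probe differed by 0.14 ± 0.24 in the other direction.

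The Isg15 and Oas1a promoters are shown because their ISRE matches run into one another. The stretches are Isg15 at chr4:156200850-156200921 and Oas1a at chr5:120907526-120907648 (GRCm38.p6, minus strand, 5′ to 3′, matches in capitals). Isg15 holds 3 overlapping ISRE matches, and Oas1a holds a GAS match and then 2 overlapping ISRE matches next to the start.
Isg15: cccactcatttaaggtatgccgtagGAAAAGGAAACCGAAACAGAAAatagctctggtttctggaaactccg
Oas1a: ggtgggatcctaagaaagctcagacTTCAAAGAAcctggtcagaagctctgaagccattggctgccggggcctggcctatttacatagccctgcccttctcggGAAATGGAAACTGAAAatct

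Apart from Ifit1 and Ifit2, 11 effectors were tested, and 10 of them had a lower knockout mean, against 50.5% of all tested genes, with a median of -0.075. With Ifit1 and Ifit2 the count was 12 of 13 and the median -0.163. Xaf1, a protein that promotes cell death, was read at chr11:72122169-72122228 (mm9) with signals of 165, 174 and 161 in knockout testes, against 202, 177 and 207 in wild-type testes. The signals did not overlap, though after scaling knockout array 2 at -2.14 lay just above wild-type array 2 at -2.15. The difference of -0.24 ± 0.09 (log2, SE) is 1.18-fold lower, with an interval of 1.02 to 1.37 (limma adjusted p = 0.662). A second Xaf1 probe, further along the same transcript, was not tested because it was too dim. It was above background on 2 knockout arrays and 1 wild-type array. Its signals of 12.2, 15.6 and 11.7 in knockout testes, against 12.5, 9.08 and 12.7 in wild-type testes, overlapped. Ifi44, a protein of the antiviral response, read 18.1, 15.1 and 12.6 against 17.0, 18.0 and 22.6, a difference of -0.36 ± 0.15 with overlapping genotypes (adjusted p = 0.662). With normexp correction and its offset of 50 the Ifi44 difference was -0.08. Usp18, the protease that removes Isg15 from proteins and damps interferon signalling, read 94.0, 86.4 and 81.5 against 115, 94.4 and 92.3 and differed by -0.21 ± 0.11 (adjusted p = 0.679).

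The remaining effectors had signals that overlapped between genotypes. Mx1, a GTPase that traps viral components, read 131, 118 and 102 in knockout testes, against 132, 130 and 124 in wild-type testes, a difference of -0.16 ± 0.11 (adjusted p = 0.707). Mx2, its relative, read 246, 224 and 212 against 225, 221 and 239, a difference of -0.02 ± 0.07. The 2-5A synthetases differed from each other in spread. Oas1a read 91.5, 114 and 87.7 against 122, 95.6 and 84.4, where the arrays of a genotype differed more than the genotypes did, and its difference was -0.05 ± 0.19. Oas2 was the only tested effector with a higher knockout mean, by 0.05 ± 0.15, from 79.0, 78.2 and 72.5 against 90.4, 60.5 and 71.1. Wild-type arrays gave both the highest and the lowest Oas2 value. Oasl2, a relative that assists RNA sensing, read 395, 443 and 410 against 438, 398 and 440, a difference of -0.05 ± 0.09. Bst2, tetherin, which holds budding viruses at the cell surface, read 643, 720 and 734 against 773, 653 and 705, a difference of -0.04 ± 0.10.

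The sensors of foreign nucleic acid were measured on all 6 arrays and differed little. Ifih1, the RNA sensor MDA5, was read at chr2:62435507-62435566 (mm9) with signals of 96.8, 90.4 and 93.1 in knockout testes, against 100, 94.8 and 102 in wild-type testes. After scaling its genotypes were apart, at -3.12, -3.08 and -3.14 against -2.98, -3.05 and -3.02, and its difference of -0.10 ± 0.06 (log2, SE) had an adjusted p of 0.69 in limma. Ddx58, the RNA sensor RIG-I, read 416, 434 and 466 against 452, 412 and 489, a difference of -0.06 ± 0.08. Dhx58, known as LGP2, which tunes the other RNA sensors, read 2820, 2650 and 2530 against 2420, 2590 and 2670 and differed by 0.04 ± 0.07. Zbp1, a sensor of left-handed nucleic acid that triggers cell death, read 75.5, 73.3 and 62.9 against 78.0, 69.9 and 64.1. Its brighter probe differed by -0.02 ± 0.12 and its dimmer probe by 0.33 ± 0.15 (adjusted p = 0.658), so the probes did not share a sign. Of 5 genes with a second tested probe, Zbp1 and Isg15 were the pair whose probes differed in sign.

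The transcription factors of the type I response overlapped between genotypes. Irf7, which drives the amplification of type I interferon, lies on chromosome 7 with Gipr, its probe 128.7 Mb from that of Gipr, and the other members lie on 14 other chromosomes. Its signal was 27.7, 23.4 and 24.5 in knockout testes, against 25.7, 24.2 and 21.4 in wild-type testes, a difference of 0.07 ± 0.10 (log2, SE, limma adjusted p = 0.843). Irf9, the DNA-binding subunit of the type I complex, read 352, 315 and 378 against 338, 343 and 310, a difference of 0.06 ± 0.08. Stat2, its partner, read 516, 474 and 505 against 541, 457 and 517, a difference of -0.03 ± 0.07. None of these differences exceeded its standard error.

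**Figure D4:**
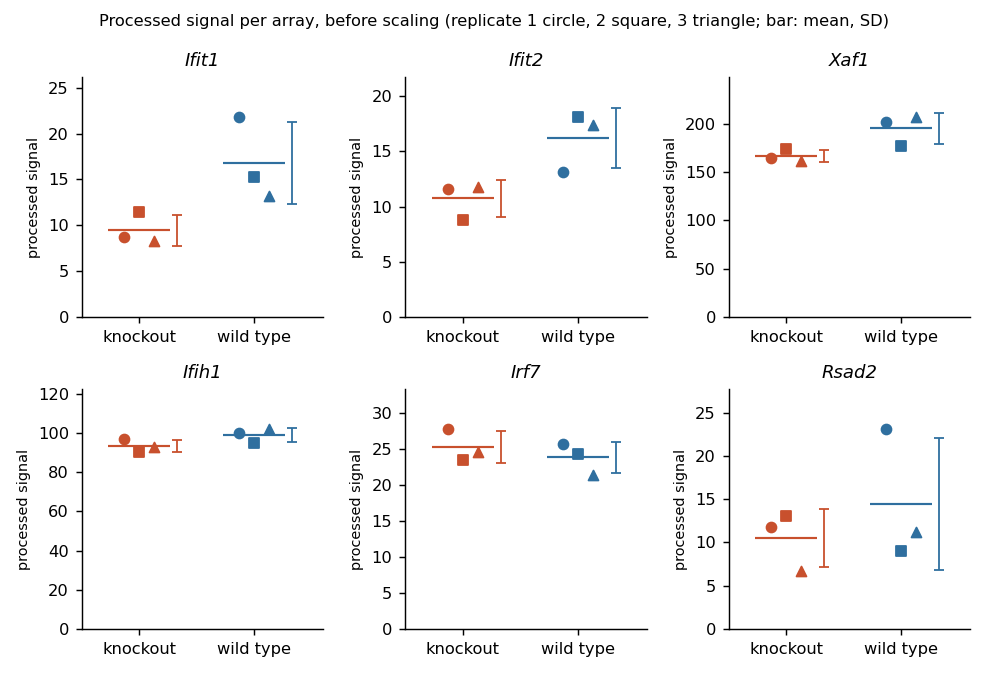
Processed signal before scaling (linear axis from 0) of Ifit1, Ifit2, Xaf1, Ifih1, Irf7 and Rsad2 on each array, with the mean (bar) and SD over 3 arrays per genotype; Rsad2 was too dim to be tested. The genotypes do not overlap for Ifit1, Ifit2 and Xaf1, they overlap for the other panels, and wild-type array 1 is highest for Ifit1 (21.8) and Rsad2 (23.1).

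None of the gamma targets passed the test between genotypes, and the third array of each genotype read low. Their centred medians were 0.04, 0.04 and -0.21 in knockout testes, against 0.16, 0.13 and -0.11 in wild-type testes. The 3 promoter stretches below are shown for the motifs that set these targets beside the type I genes: a GAS alone in Irf1, an ISRE alone in Gbp2 and both in Igtp. They lie at chr11:53769899-53769957 for Irf1, chr3:142620579-142620638 for Gbp2 and chr11:58199486-58199555 for Igtp (GRCm38.p6, plus strand, 5′ to 3′, matches in capitals). Irf1 has 2 annotated starts, and its GAS match lies in the window of 1 of them, the one shown.
Irf1: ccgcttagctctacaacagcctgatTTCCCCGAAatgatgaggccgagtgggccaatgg
Gbp2: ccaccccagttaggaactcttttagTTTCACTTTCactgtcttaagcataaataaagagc
Igtp: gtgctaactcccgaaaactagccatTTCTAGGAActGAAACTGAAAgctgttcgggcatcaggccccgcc

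Irf1, the transcription factor that carries much of the gamma response, read 392, 396 and 446 in knockout testes, against 468, 477 and 377 in wild-type testes. Wild-type array 3 lay below every knockout array and the other wild-type arrays above all of them, and the difference was -0.11 ± 0.13 (log2, SE, limma adjusted p = 0.81). The GTPases, which take part in defence against intracellular parasites, split 3 lower and 2 higher with a median of -0.048. Igtp read 158, 164 and 145 against 199, 177 and 155, a difference of -0.19 ± 0.13 (adjusted p = 0.707). Its probe is printed in 10 spots per array, and the SD between spots of an array was 0.07 to 0.2 in log2 with a median of 0.08, and the SD between arrays was 0.14 for the knockout and 0.21 for the wild type. At the median, the spots of an array lay closer together than the arrays did. Irgm1 read 124, 106 and 102 against 127, 124 and 117, a difference of -0.17 ± 0.09 (adjusted p = 0.676).

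Gbp2 and Iigp1 had higher knockout means. Gbp2 read 132, 128 and 119 against 120, 123 and 111 and differed by 0.08 ± 0.09, and Iigp1 read 499, 385 and 396 against 399, 372 and 425 and differed by 0.07 ± 0.09. Both overlapped, and the mean of Iigp1 rested on knockout array 1, without which its difference was -0.02. Gbp3 read 111, 108 and 92.2 against 112, 120 and 87.5, a difference of -0.05 ± 0.16 in which the third array of each genotype was the lowest.

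The genes of antigen processing shared their extreme arrays. Psmb8 and Psmb9 encode subunits of the immunoproteasome, which cuts proteins into peptides, and Tap1 is part of the transporter that loads those peptides onto MHC class I. Psmb8 read 126, 113 and 97.5 in knockout testes, against 140, 104 and 117 in wild-type testes, and Psmb9 read 136, 127 and 111 against 139, 122 and 126. Tap1 read 15.8, 14.1 and 11.1 against 18.0, 15.7 and 13.9. For all 3 genes, wild-type array 1 was the highest and knockout array 3 the lowest after scaling, and the genotypes overlapped. Their differences were -0.12 ± 0.14, -0.07 ± 0.10 and -0.24 ± 0.17, with limma adjusted p-values of 0.817, 0.861 and 0.714. Tap1 has 10 spots per array, of which 3 were well above background on knockout array 3, and its SD between spots had a median of 0.29, larger than that of Igtp. With normexp correction and its offset of 50 the Tap1 difference was -0.06.

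**Figure D5:**
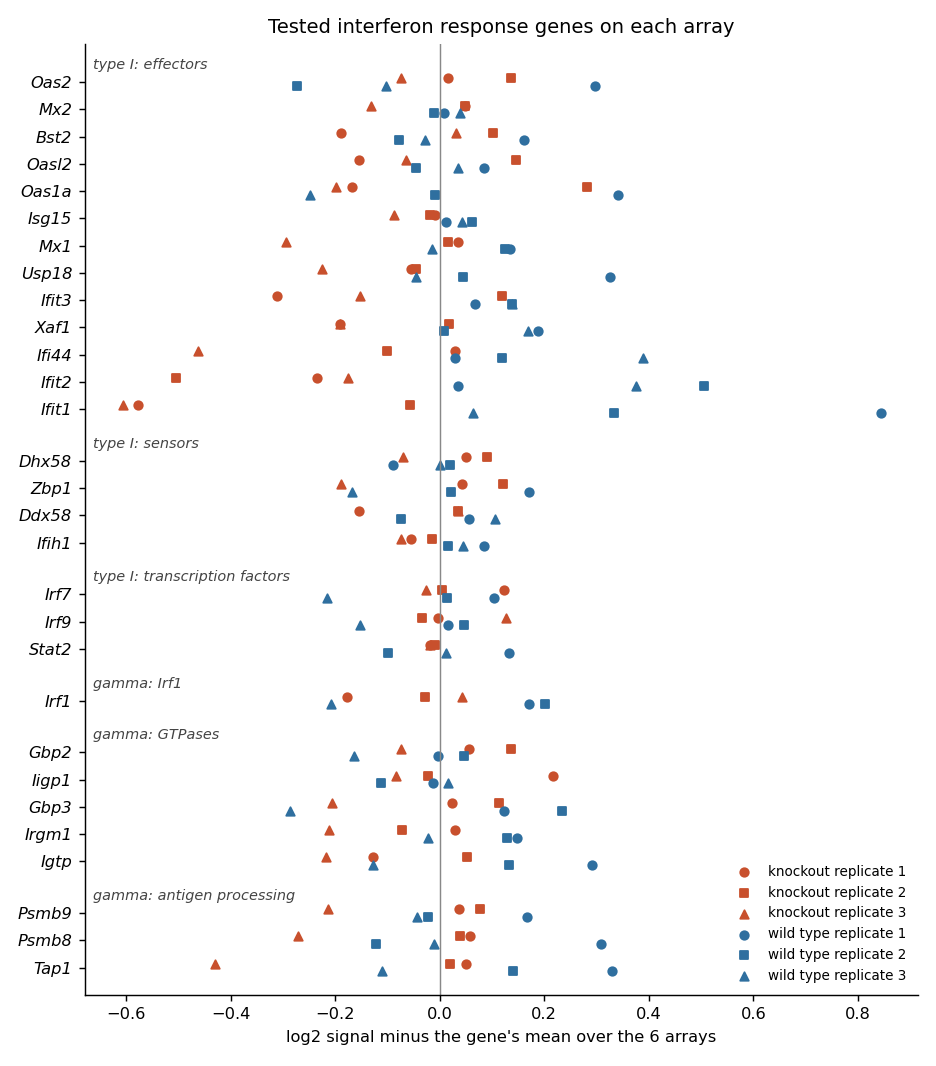
Log2 signal of each tested interferon response gene on each of the 6 arrays, centred on that gene's mean over all arrays, by role. The knockout and wild-type arrays of Ifit1, Ifit2, Isg15 and Ifih1 do not overlap, those of the other 25 genes do, and wild-type array 1 is the highest for 15 genes.

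Tested members had mean signals from 12.4 to 2610, and the dim ones were measured with wider errors. The 5 genes with a mean signal under 30 (Ifit1, Ifit2, Ifi44, Irf7 and Tap1) had standard errors of 0.10 to 0.24, with a median of 0.15. The 24 brighter genes had standard errors of 0.05 to 0.19, with a median of 0.10. Members also varied more between mice of a genotype than genes at large, with a median SD of 0.138 in knockout testes, where all tested genes had 0.109, and of 0.119 in wild-type testes, where all tested genes had 0.090.

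The rest of the interferon pathway was read from a list of 99 further genes, of which 96 were on the array and 88 were tested. limma called 0 of the 88, 5 read lower in the knockout at an unadjusted p under 0.05 and 0 higher, and the lowest adjusted p was 0.662. Over all tested genes 3.89% read lower at that unadjusted p. Among the 86 of these genes above background on all 6 arrays, 4 read lower at that p and 0 higher. Over all 88 the knockout mean was lower for 51 and higher for 37, with a median of -0.019. Over all tested genes it was lower for 50.5%, with a median of -0.001. Wild-type array 1 was the highest for 33% of the 88, against 14.4% of all tested genes. Knockout array 3 was the lowest for 31.8%, against 27.6%.

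Ligands and receptors supplied 15 of these tested genes. The ligands Ifnb1, Ifna4, Ifne and Ifng were not well above background. The other listed ligands on the array were above it on every array of both genotypes. Among them Ifna5 read 75.2, 68.1 and 77.6 in knockout testes, against 80.4, 73.7 and 78 in wild-type testes. Il10rb, a receptor chain shared by type III interferons and interleukin 10, read 204, 210 and 205 in knockout testes, against 250, 221 and 248 in wild-type testes, a difference of -0.23 ± 0.08 with no overlap. Ifnar2, a chain of the type I receptor, read 477, 470 and 426 against 512, 513 and 657 and differed by -0.30 ± 0.11, with wild-type array 3 well above the rest. The type I ligand Ifnk was high on a single array, knockout array 2, at 36.5, 124 and 23.2 against 24.3, 27.9 and 31.5.

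Genes of receptor signalling numbered 11, with 7 lower and 4 higher and 0 at an unadjusted p under 0.05. Tyk2, the kinase bound to the type I receptor, differed by -0.09 ± 0.06, and Irf2, a repressor of interferon targets, by -0.17 ± 0.09. Of the 13 tested genes that induce interferon, Ikbke, a kinase that activates Irf3 and Irf7, differed by -0.22 ± 0.08, and its relative Tbk1 by 0.14 ± 0.09.

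Further effectors and gamma targets ran to 26 and 24 tested genes. Samd9l, an antiviral restriction factor, read 324, 334 and 363 in knockout testes, against 461, 375 and 434 in wild-type testes, a difference of -0.33 ± 0.10 with no overlap. Tgtp1, a GTPase of the same family as Irgm1, read 13.3, 9.07 and 13.8 against 19.1, 13 and 17.9, a difference of -0.48 ± 0.19 with overlapping genotypes. It passed the filter only through the wild-type arrays, so its direction was built in. Cxcl9, a chemokine that draws T cells to sites of gamma signalling, read 44.3, 39.1 and 42.7 against 32.3, 40 and 27.1, a difference of 0.34 ± 0.15 in the other direction. Its signals overlapped, but after scaling every knockout value lay above every wild-type value. Ciita and Ido1, which interferon gamma induces in many cells, were not above background.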

How the data were processed

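The deposited intensity values are the authors' scanner output: per the file headers, Agilent Feature Extraction 10.7.3.1 read 1-colour arrays of design 028005 and gave each spot a background-corrected, spatially detrended processed signal and a flag (0 or 1, an other value) for being well above background. Probe coordinates are on mm9 per the file headers, and exon annotation on that build was not used here. The authors' deposited value table, in which each array's processed intensity is multiplied to a median of 200, served as an alternative. The members and gene lists were chosen with earlier results of these data known.

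Outlier spots (117 to 149 per array) were dropped, log2 was taken, the spots of a probe were averaged and each array's 75th percentile was subtracted. A tested probe had at least 0.5 of its spots well above background on all 3 arrays of a genotype, and a gene took its brightest tested probe. Probe names were updated through RefSeq (GRCm38.p6): 26762 matched by accession, 3819 by symbol and 639 by synonym, and 24461 kept the name in the files. limma 3.58.1 in R 4.3.3 (lmFit, eBayes, all 6 arrays, no covariates, two-sided) tested 26933 genes with Benjamini-Hochberg adjustment. An exact permutation test of 3 against 3 cannot go below 0.1. All 31 members could be named, and of each further list the 4 genes of lowest p. Values of 1 listed pathway gene are not reported here. The number of arrays limits the precision. Alternatives were the background correction, scaling, filter, choice of probe, variance shrinkage, array weights, a replicate block and leaving out each array. The normexp background correction used an offset of 50.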

Additional observations from a re-analysis of the deposited data

How the results depend on the processing

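Under 16 alternatives limma called 0 of the interferon response genes and 0 of the further pathway genes, and the lowest adjusted p of a member ran from 0.195 (array weights) to 0.941 (without wild-type replicate 2). The members with an unadjusted p under 0.05 numbered 1 to 5, where 4.77% to 19.6% of all genes had such a p. The 5 were reached with array weights, at 19.6% of all genes, and without wild-type replicate 3, at 9.56%. Over all genes, 19 calls became 7 with no filter on dim probes, 34 with a variance trend and robust shrinkage, 29 with array weights and 5 with the replicate number as a block. They numbered 5 to 24 when 1 array was left out. Same-numbered arrays did not deviate together (correlations of 0.05, -0.05 and -0.03). With 3 arrays per genotype, these correlations cannot show whether the mice were paired.

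Members with a lower knockout mean numbered 17 to 25 without 1 array (type I 12 to 18, gamma 5 to 8), with medians of -0.104 to -0.034 for type I genes and -0.203 to 0 for gamma targets. Signs turned for Zbp1 (0.014 with normexp, 0.154 with the mean of its probes), Isg15 (0.033 with that mean), and with array weights for Irf9 (-0.004), Mx2 (0.02) and Stat2 (0.002). Without 1 array, differences spanned 0 for Bst2 (-0.098 to 0.049), Ddx58 (-0.107 to 0.01), Iigp1 (-0.016 to 0.134), Oas1a (-0.206 to 0.105), Oasl2 (-0.131 to 0.016), Oas2 (-0.071 to 0.215), Gbp3 (-0.203 to 0.058), Mx2 (-0.052 to 0.037), Psmb8 (-0.207 to 0.005), Psmb9 (-0.121 to 0.027), Zbp1 (-0.105 to 0.074), Stat2 (-0.092 to 0.027), Irf7 (-0.023 to 0.137) and Irf9 (-0.008 to 0.096). In the 5 genes of mean signal under 30, normexp gave smaller differences: Ifit1 -0.186, Ifit2 -0.105, Ifi44 -0.08, Tap1 -0.063 and Irf7 0.013. The normexp offset of 50 exceeds those mean signals, so it shrinks their log2 differences by construction. The counts of lower members were chosen as results after the data were seen.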
